A study of Homo sapiens with 18 samples.

Results

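Of the 23411 gene symbols counted in ARPE-19 cells, 8 were transcribed in every control-cell library and had almost no reads in the NRF2 ΔC clone: AJAP1, COCH, LHFPL4, PTPLAD2, SULT1A1, ZNF469, ZNF501 and ZNF594. They were chosen by their counts. A gene had to reach 1 CPM (count per 1000000 counts on genes in the same library) in all 9 control-cell libraries, and to have no more than 9 counts in total over the 9 NRF2 ΔC libraries. Of the 12321 symbols that met the first condition, 8 (0.0649%) met the second. The low level in NRF2 ΔC cells is therefore the rule itself and is given as a description, without a test.

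ARPE-19 cells derive from human retinal pigment epithelium (RPE), the pigmented layer behind the photoreceptors, and arose spontaneously in culture. Both cell lines were transduced with LentiCRISPR v2 particles that express Cas9 and were selected with puromycin. The control cells received particles without a guide RNA, whereas the NRF2 ΔC cells carried a guide against exon 5 of NFE2L2, which is its last exon and encodes the C terminus of NRF2, with a stop codon in both edited alleles, and were grown from a single clone. Whether the control cells are also a clone is not given in the sources used here. All NRF2 ΔC libraries come from 1 clone, so the edit and the history of that clone cannot be told apart in these data. Each line was untreated, treated with 1 mM NACET (N-acetylcysteine ethyl ester, a cell-permeable cysteine donor) or treated with 0.2 mM H2O2, with 3 libraries in each of the 6 groups. Treatment lasted 8 h by the study's text and by the series description, which has the cells grown in 10% serum for 40 h before it and also names 1% serum. By the protocols of the samples it lasted 2 h, from 22 h on, in 1% serum. The counts do not tell which applies. The labels do not say whether replicates were separate cultures, so p-values measure only the spread between these samples. In bulk RNA, fewer cells that express a gene and less RNA per cell cannot be told apart.

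NRF2 is a transcription factor that is held in the cytoplasm and degraded with the help of KEAP1. When KEAP1 is modified by oxidants or electrophiles, NRF2 accumulates, pairs with small MAF proteins through its C-terminal domain and binds antioxidant response elements (ARE) near genes of glutathione and quinone metabolism. The 8 genes have unlike roles. AJAP1 spans the membrane at adherens junctions, COCH is secreted into the extracellular matrix of the inner ear, LHFPL4 holds GABA-A receptors at inhibitory synapses, PTPLAD2 and SULT1A1 are enzymes of lipid and phenol metabolism, and ZNF469, ZNF501 and ZNF594 encode zinc finger proteins. Symbols starting with ZNF and a digit made up 3 of the 8 genes, and 437 (3.55%) of the 12321 symbols at 1 CPM or more in all control-cell libraries.

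The genes lie on 6 chromosomes. On GRCh37 with GENCODE lifted to that build, AJAP1 is at chr1:4714669-4852594 on the plus strand, LHFPL4 at chr3:9540045-9595506 on the minus strand, ZNF501 at chr3:44771088-44778575 on the plus strand and PTPLAD2, now named HACD4, at chr9:20999508-21031639 on the minus strand. COCH is at chr14:31343720-31364271 on the plus strand, SULT1A1 at chr16:28616517-28625600 on the minus strand, ZNF469 at chr16:88449367-88507165 on the plus strand and ZNF594 at chr17:5082830-5095163 on the minus strand. The pairs on chromosomes 3 and 16 are 35.2 and 59.8 Mb apart. No reads were counted by strand. COCH overlaps STRN3, a gene with counts of its own that lies on the opposite strand, and AJAP1 overlaps an antisense long noncoding RNA. SULT1A1 has near-identical copies, and reads that mapped to several places were not counted, so its level is uncertain.

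RefSeq promoters (GRCh38.p14) were found for 6 of the 8 genes. The 250 bases before the start are shown for the gene with a treatment difference in control cells (AJAP1), for the genes with no count at all in NRF2 ΔC cells (LHFPL4 and ZNF594) and for the only one with a TATAAA hexamer (COCH), each 5′ to 3′ on the gene's own strand. Capitals mark CpG dinucleotides, the sites of DNA methylation. The windows are chr1:4654359-4654608 (plus strand), chr3:9553823-9554072 (minus), chr17:5191869-5192118 (minus) and chr14:30874309-30874558 (plus).
AJAP1: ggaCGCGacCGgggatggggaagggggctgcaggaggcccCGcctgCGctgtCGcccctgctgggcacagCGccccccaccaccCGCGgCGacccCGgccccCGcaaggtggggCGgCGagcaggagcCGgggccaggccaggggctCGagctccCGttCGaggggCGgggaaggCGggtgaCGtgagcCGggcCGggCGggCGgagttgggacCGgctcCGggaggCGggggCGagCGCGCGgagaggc
LHFPL4: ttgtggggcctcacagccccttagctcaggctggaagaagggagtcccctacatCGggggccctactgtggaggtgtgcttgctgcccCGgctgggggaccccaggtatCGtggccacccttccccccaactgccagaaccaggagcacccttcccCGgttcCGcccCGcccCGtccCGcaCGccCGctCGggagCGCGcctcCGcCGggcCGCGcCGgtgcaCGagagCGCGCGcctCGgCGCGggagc
ZNF594: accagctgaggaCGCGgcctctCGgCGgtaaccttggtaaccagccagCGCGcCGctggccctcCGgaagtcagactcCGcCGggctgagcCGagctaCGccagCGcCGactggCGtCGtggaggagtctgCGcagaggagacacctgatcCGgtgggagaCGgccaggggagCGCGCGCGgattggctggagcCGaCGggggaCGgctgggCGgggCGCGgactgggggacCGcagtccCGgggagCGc
COCH: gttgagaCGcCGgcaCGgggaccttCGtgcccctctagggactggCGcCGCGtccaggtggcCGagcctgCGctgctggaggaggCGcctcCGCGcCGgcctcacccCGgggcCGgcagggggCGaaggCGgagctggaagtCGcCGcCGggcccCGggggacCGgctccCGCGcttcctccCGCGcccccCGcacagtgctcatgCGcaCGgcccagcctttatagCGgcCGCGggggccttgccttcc

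The capitals are dense in all 4 windows. They hold 32 CpG in AJAP1, 25 in LHFPL4, 32 in ZNF594 and 32 in COCH, and in LHFPL4 most lie in the part nearest to the start. Over the 300 bases from 250 before to 50 after the start, the ratio of observed to expected CpG was 0.86 for AJAP1, 0.89 for COCH, 0.80 for LHFPL4, 0.83 for PTPLAD2, 0.91 for ZNF501 and 0.95 for ZNF594. All 6 were at or above 0.6, as were 77.3% of the 14395 promoters of genes expressed in control cells and 48.9% of all 35116 promoters in the table, which holds several promoters for some genes. The CpG content of these promoters is therefore that of most genes expressed in these cells. GC content ranged from 62.7% (PTPLAD2) to 80.7% (AJAP1), against a median of 65.0% for the promoters of expressed genes. The ARE core TGACNNNGC, searched on both strands, was in 0 of the 6 windows and in 14.3% of the promoters of expressed genes. TATAAA, searched on both strands, was in COCH alone, where it reads on the opposite strand, and in 5.82% of the promoters of expressed genes. DNA methylation was not measured in this series.

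**Figure D1:**
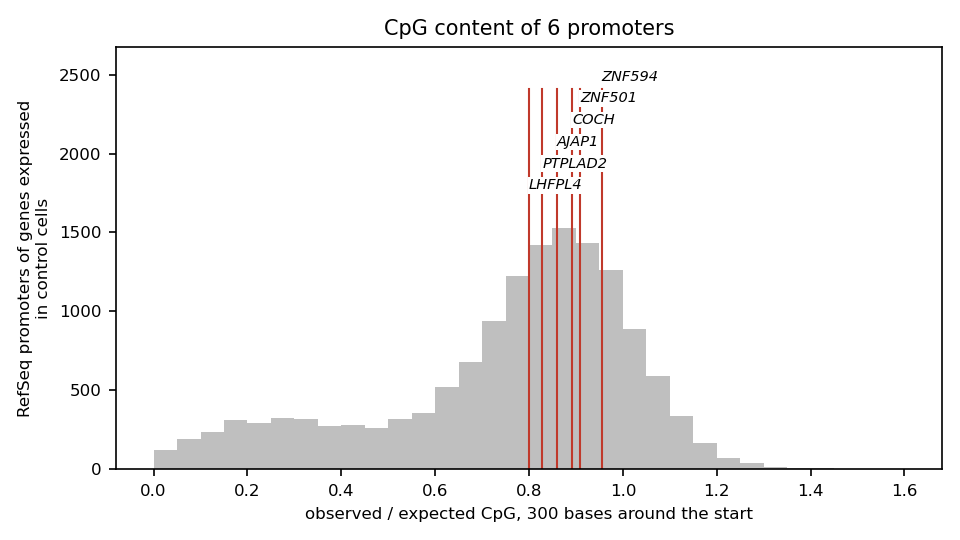
Histogram of the ratio of observed to expected CpG in 300-base promoter windows of genes at 1 CPM or more in all control-cell libraries (bars, number of promoters), with the 6 promoters of the set as vertical lines. All 6 lines, from 0.80 to 0.95, stand within the main peak.

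The libraries held from 16673306 to 25951154 counts on genes. NFE2L2 itself was at 122.5 ± 3.22 CPM in untreated control and 124.2 ± 3.79 CPM in untreated NRF2 ΔC cells (SD, n = 3 each), and the counts cover the whole gene, so they do not check the edit. Of 13 RPE markers, 7 averaged at least 1 CPM in control and 9 in NRF2 ΔC cells. Keratins KRT8 and KRT18 and the eye transcription factors MITF and OTX2 were well expressed, whereas RPE65, the isomerase of the visual cycle, and TTR were near 0 in both lines (2 and 1 counts over the control, 2 and 4 over the NRF2 ΔC libraries). The summed fibroblast markers ranged from 253 to 640.5 CPM in control and from 148 to 481 CPM in NRF2 ΔC libraries, with THY1, DCN and LUM near 0. The summed neuron markers ranged from 16.4 to 42.6 and from 9.45 to 24.5 CPM, nearly all of it from SYT1, and the leukocyte markers stayed at or under 0.647 and 1.80 CPM. The part of other cell types in the results was not tested.

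AJAP1 encodes a transmembrane protein that binds the cadherin and catenin complex and basigin. Its level in control cells was 8.34, 7.42 and 7.86 CPM untreated, 11.3, 11.3 and 8.11 CPM with H2O2 and 13.9, 13.4 and 11.5 CPM with NACET. The NRF2 ΔC libraries held 1 AJAP1 count in all, in 1 NACET-treated library, against 1927 counts in control cells. The pooled level was 2011-fold higher in control cells, with a counting interval from 360 to 79460 (exact 95% interval of the ratio of 2 counts, counting error only). Among the 8 genes, AJAP1 was the one for which the NACET-treated control libraries stood above all other control libraries. How many of all genes have groups that stand apart in this way was not counted, here and in the paragraphs below.

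COCH encodes cochlin, and changes in it cause a dominant form of hearing loss. It was at 3.91, 3.23 and 2.75 CPM in untreated, 4.26, 2.63 and 3.40 CPM in H2O2-treated and 3.90, 2.81 and 3.03 CPM in NACET-treated control cells. The control groups overlapped. NRF2 ΔC cells had 7 counts in 4 of 9 libraries, with at most 3 in 1 library, and the level in control cells was 92.3-fold higher (95% counting interval 44.5 to 230). STRN3, whose reads cannot be told from COCH reads by strand where the genes overlap, was at 30.4 CPM in control and 30.8 CPM in NRF2 ΔC cells.

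LHFPL4, a tetraspan protein that joins GABA-A receptors to neuroligin 2, had no count in any NRF2 ΔC library. Its level in control cells was 2.30, 1.76 and 2.98 CPM untreated, 1.80, 2.16 and 3.19 CPM with H2O2 and 2.52, 2.00 and 3.32 CPM with NACET. In each treatment replicate 3 was the highest, and the groups overlapped. Against a floor of 3 counts over the 9 NRF2 ΔC libraries, LHFPL4 was at least 162-fold higher in control cells.

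PTPLAD2 encodes a 3-hydroxyacyl-CoA dehydratase, the enzyme of the dehydration step in the elongation of very long chain fatty acids. It was at 4.26, 3.23 and 3.03 CPM untreated, 3.96, 2.67 and 2.18 CPM with H2O2 and 3.80, 3.02 and 2.33 CPM with NACET in control cells. In each treatment replicate 1 was the highest and replicate 3 the lowest, and at each replicate number the untreated library was above the treated ones. The groups overlapped. NRF2 ΔC cells had 6 counts in 4 libraries, and the level in control cells was 103-fold higher (95% counting interval 46.9 to 281).

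SULT1A1 is a cytosolic phenol sulfotransferase that conjugates phenolic drugs and hormones. Its values were 3.39, 2.28 and 2.35 CPM in untreated, 1.92, 1.42 and 1.77 CPM in H2O2-treated and 3.55, 2.105 and 2.20 CPM in NACET-treated control cells. All 3 libraries with H2O2 were below all those of the other control groups. NRF2 ΔC cells had 4 counts in 3 libraries, and the level in control cells was 114.5-fold higher (95% counting interval 44.4 to 422).

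ZNF469, a large zinc finger gene mutated in brittle cornea syndrome, stood closest to both limits of the rule. It was at 1.87, 1.14 and 1.17 CPM untreated, 2.1, 1.90 and 1.37 CPM with H2O2 and 1.95, 2.38 and 1.87 CPM with NACET in control cells. It had 8 counts in NRF2 ΔC cells, spread over 7 of 9 libraries with at most 2 in 1 library. The level in control cells was 42.5-fold higher (95% counting interval 21.3 to 99.3), the smallest ratio of the 8 genes.

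ZNF501 and ZNF594 encode C2H2 zinc finger proteins, a class of DNA-binding proteins. ZNF501 was at 2.74, 3.23 and 2.62 CPM in untreated, 3.42, 3.97 and 4.11 CPM in H2O2-treated and 3.08, 2.92 and 2.78 CPM in NACET-treated control cells, with the H2O2-treated libraries above all others. It had 3 counts in NRF2 ΔC cells, each in another library, and the level in control cells was 209-fold higher (95% counting interval 71.1 to 1015). ZNF594 was at 2.95, 2.24 and 2.08 CPM untreated, 3.36, 2.5 and 3.30 CPM with H2O2 and 2.26, 2.65 and 1.74 CPM with NACET in control cells, and the groups overlapped. Like LHFPL4 it had no count in NRF2 ΔC cells, and was at least 165-fold higher in control cells.

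Over the 8 genes the control-cell libraries held 5441 counts and the NRF2 ΔC libraries 29. In NRF2 ΔC cells 50 of the 72 values were 0, and the highest was 3 counts, whereas the lowest value in control cells was 24 counts. The 29 counts were spread over the treatments, with 8 in the untreated libraries, 9 with H2O2 and 12 with NACET. With so few counts, treatment differences of the 8 genes were not tested in NRF2 ΔC cells.

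**Figure D2:**
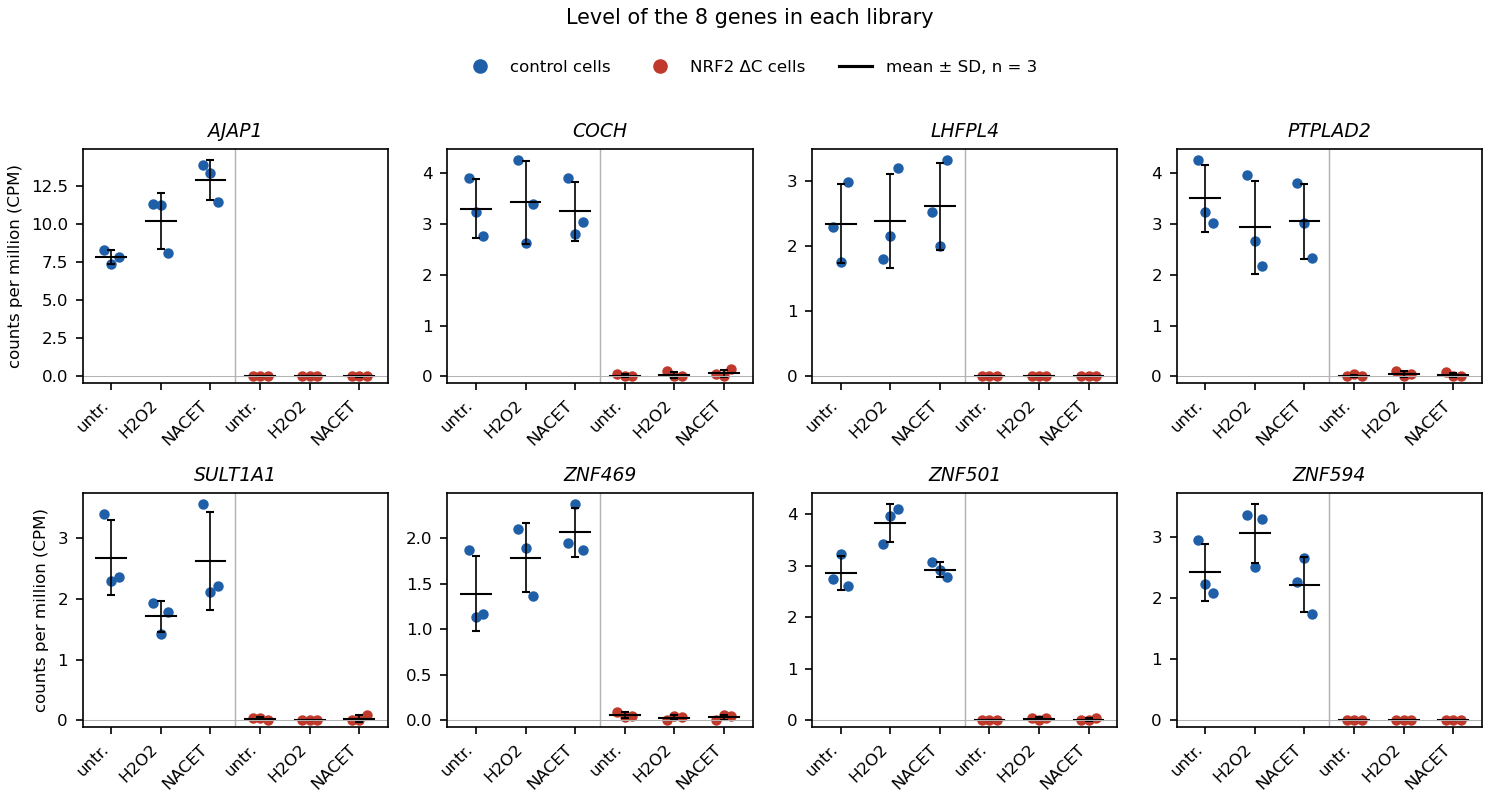
Level of each of the 8 genes in CPM (y axis, linear, a scale for each gene) in the 18 libraries, by treatment (x axis; untr., untreated), for control cells (blue) and NRF2 ΔC cells (red); bars give the mean ± SD of 3 libraries. Every NRF2 ΔC point lies near 0, and the NACET-treated libraries are the highest for AJAP1.

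The 8 genes formed the end of a range rather than a group apart. Of the 12321 symbols at 1 CPM or more in all control-cell libraries, 2 had no count in NRF2 ΔC cells, 8 had at most 9, 15 at most 18, 35 at most 50 and 56 at most 100. Just outside the limit on counts were C5orf63 (10 counts), IQCA1 (10) and VANGL2 (11), and just outside the limit on the level were KCNJ12, with a lowest control value of 0.964 CPM, ZNF879 (0.914 CPM) and ACTN2 (0.738 CPM). Among the symbols at 1 CPM or more in all control-cell libraries, the 5 outside the set with the lowest ratio of NRF2 ΔC to control mean CPM were BHMT2, C5orf63, ZNF788, FAM109B and CTSF. BHMT2, a methyltransferase of the methionine cycle, was 161.5-fold higher in control cells by this ratio over 18 libraries (14.9 against 0.092 CPM), and CTSF, the protease cathepsin F, 84.6-fold. With the lines exchanged the rule returned 0 of 12069 symbols (0.0%), so no gene at 1 CPM or more in every NRF2 ΔC library had so few counts in control cells.

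**Figure D3:**
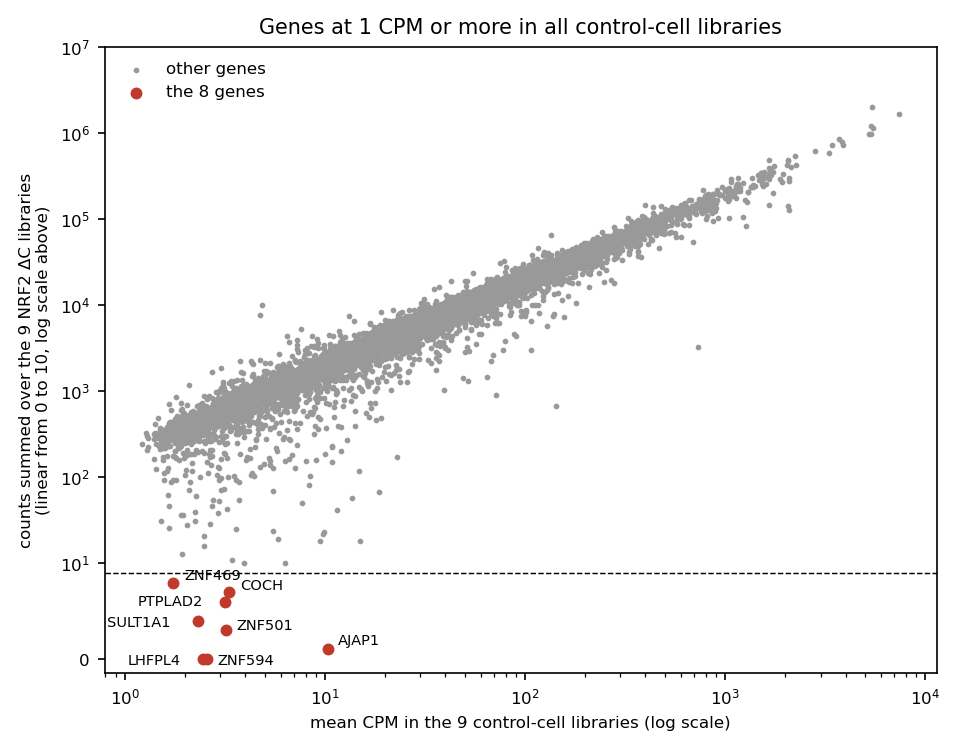
Mean CPM in the 9 control-cell libraries (x axis, log scale) against the counts summed over the 9 NRF2 ΔC libraries (y axis, linear up to 10 and log scale above) for the 12321 symbols at 1 CPM or more in all control-cell libraries; the dashed line is the limit of 9 counts. The 8 genes (red) lie below it, and 48 others lie between it and 100 counts.

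The genes around the 8 were then compared, since these were not used by the rule. The 2 nearest counted genes on each side were taken, which gave 32 neighbours, of which 20 had enough counts to be tested. None of the 20 was a DEG, which means a p under 0.05 after Benjamini-Hochberg (BH) adjustment over all genes in edgeR's quasi-likelihood test, and a fold change beyond ±0.6 on the log2 scale, between NRF2 ΔC and control cells, whichever the treatment. Over all genes 3.85% of 13710, 4.76% of 13627 and 5.62% of 13580 were DEGs untreated, with NACET and with H2O2. At an unadjusted edgeR p under 0.05 there were 1, 3 and 5 of the 20 neighbours. Over all genes 1879 of 13710, 2541 of 13627 and 3225 of 13580 were under it. DESeq2 called 0, 0 and 3 of the 20 neighbours, the last being G2E3 and KIF15 (lower) and ZFPM1 (higher) with H2O2. Over all genes DESeq2 called 670, 838 and 1048 of the same totals. In edgeR the log2 fold change of G2E3, with its standard error (SE), was -0.73 (SE 0.24, BH-adjusted p = 0.11).

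The neighbours of the 2 genes without any count differed little between the lines. SETD5, a chromatin regulator next to LHFPL4, was at 166 CPM in control and 167 CPM in NRF2 ΔC cells, with a log2 fold change of 0.05 (SE 0.12) in untreated cells. MTMR14, on the other side of LHFPL4, was at 43.5 and 49.9 CPM. RABEP1, near ZNF594, was at 115 and 111 CPM, and its log2 fold change in untreated cells was 0.01 (SE 0.10). Both sides of LHFPL4 were thus transcribed in NRF2 ΔC cells.

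Near AJAP1, C1orf174 was at 23.9 CPM in control and 27.3 CPM in NRF2 ΔC cells, and NPHP4 at 14.7 and 15.2 CPM. Next to COCH, SCFD1, which acts in vesicle transport, was at 59.2 and 50.1 CPM, the lowest log2 fold change of the 20 neighbours in untreated cells (-0.20, SE 0.12). FOCAD, on the side of PTPLAD2 away from the interferon genes, was at 50.1 CPM in both lines. PTPLAD2 had no other neighbour that could be tested, since IFNB1, IFNW1 and MIR491 had at most 4 counts in a line. Around ZNF469, BANP was at 14.5 and 17.5 CPM and ZFPM1 at 8.20 and 11.8 CPM. Next to ZNF501, KIAA1143 was at 27.9 and 25.2 CPM, while ZNF502 had 0 counts in control and 2 in NRF2 ΔC cells. SULT1A2, the near-identical copy beside SULT1A1, had 16 counts over the control and 0 over the NRF2 ΔC libraries, too few to be tested. In untreated cells the 20 log2 fold changes ranged from -0.20 (SCFD1) to 0.36 (ZFPM1), with a median of 0.14 and 17 of 20 above 0, against a median of 0.01 over all genes tested. With NACET they ranged from -0.31 (SCFD1) to 0.51 (BANP), and 14 of 20 were above 0. With H2O2 the range was wider, from -0.73 (G2E3) to 0.80 (ZFPM1, SE 0.25, BH-adjusted p = 0.0975 by edgeR), and 12 of 20 were above 0.

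The next question was whether the treatments change the 8 genes in the control cells. All 8 were tested, and 1, AJAP1, was a DEG of NACET, where 376 of 13696 genes (2.75%) were DEGs. AJAP1 rose from 7.87 ± 0.46 to 12.9 ± 1.30 CPM (SD, n = 3). Its log2 fold change was 0.67 (SE 0.13, BH-adjusted p = 0.0343 by edgeR quasi-likelihood), and the groups did not overlap. The size was steady, while the call was not in fits without a replicate block that left out 1 library. Without any 1 of 5 of the 6 libraries (each untreated library, NACET replicate 1 or NACET replicate 2), AJAP1 was no longer a DEG, at log2 fold changes of 0.62 to 0.72 and BH-adjusted edgeR p-values of 0.0801 to 0.178. Over all genes the number of DEGs fell as well when 1 library was left out, to between 31 and 337. In a fit of all 6 libraries blocked by replicate number, 1026 genes were DEGs. AJAP1 remained one of them (log2 fold change 0.67, SE 0.11, BH-adjusted p = 1.9e-08 by edgeR). By DESeq2 without a block its BH-adjusted p was 0.0019. The block was not combined with leaving out a library.

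The other 7 genes were not DEGs of NACET. ZNF469 had the next log2 fold change, 0.51 (SE 0.26, BH-adjusted p = 0.316 by edgeR). COCH (-0.07), LHFPL4 (0.12), SULT1A1 (-0.08) and ZNF501 (-0.01) were within 1 SE of 0, as was ZNF594 (-0.18, SE 0.24), and PTPLAD2 had -0.25 (SE 0.24). The median over the 8 genes was -0.04, against -0.01 over all genes tested, and the SEs of 0.13 to 0.27 set how small a change could be detected at these low counts.

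With H2O2 none of the 8 was a DEG by edgeR's quasi-likelihood test without a replicate block, where 867 of 13691 genes (6.33%) were. In that fit 1 of the 8 had an unadjusted p under 0.05, as did 4208 of the 13691 genes. DESeq2 called 0 of the 8, and 989 of the 13691 genes. The 1 gene of the 8 under 0.05 was SULT1A1, at 2.67 ± 0.62 CPM untreated and 1.71 ± 0.26 CPM with H2O2 (SD, n = 3). Its levels differed by -0.71 on the log2 scale (SE 0.24, BH-adjusted p = 0.0902 by edgeR). In the fit blocked by replicate number, by which these samples pair, SULT1A1 was a DEG (log2 fold change -0.69, BH-adjusted p = 0.00885 by edgeR). Over all genes the block took the DEGs from 867 to 1400. ZNF501, whose groups did not overlap, had a log2 fold change of 0.37 (SE 0.18, BH-adjusted p = 0.197 by edgeR) and AJAP1 0.33 (SE 0.16, BH-adjusted p = 0.215 by edgeR). PTPLAD2 (-0.32), ZNF469 (0.30) and ZNF594 (0.27) had SEs of 0.22 to 0.29, and COCH (-0.01) and LHFPL4 (-0.03) were close to 0.

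NACET and H2O2 were also set against each other. Again none of the 8 was a DEG by edgeR's quasi-likelihood test without a replicate block, where 499 of 13581 genes (3.67%) were. In that fit 1 of the 8 had an unadjusted p under 0.05, as did 3177 of the 13581 genes. DESeq2 called 0 of the 8, and 667 of the 13581 genes. SULT1A1 was at 2.62 ± 0.81 CPM with NACET and 1.71 ± 0.26 CPM with H2O2, without overlap, a log2 fold change of 0.64 (SE 0.27, BH-adjusted p = 0.192 by edgeR), and in the blocked fit it was a DEG (0.61, BH-adjusted p = 0.0243 by edgeR). Blocking took the DEGs over all genes from 499 to 1019. AJAP1 (0.36), ZNF501 (-0.37) and ZNF594 (-0.44) did not pass the test, with BH-adjusted edgeR p-values of 0.227 to 0.289. Each group served in more than 1 of these comparisons, so the 3 comparisons share libraries.

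**Figure D4:**
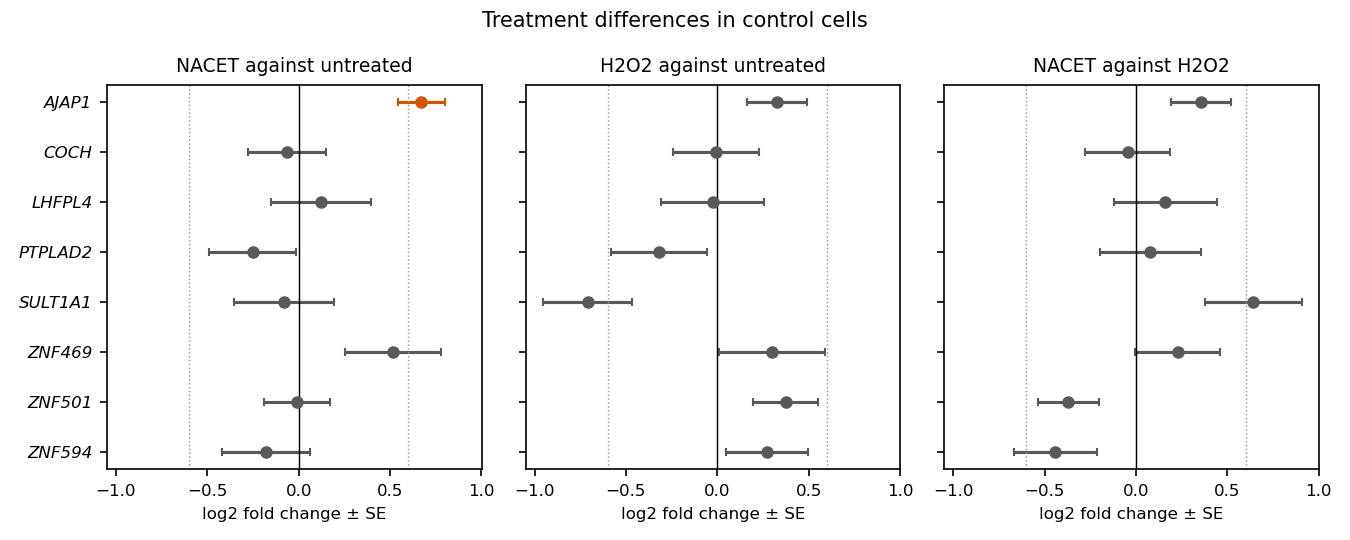
Log2 fold change ± SE (x axis, edgeR without a replicate block, 3 libraries against 3) of the 8 genes in control cells. The panels show NACET against untreated, H2O2 against untreated and NACET against H2O2. Dotted lines mark ±0.6 and orange marks a DEG. AJAP1 with NACET (0.67) is the only orange point.

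Genes related to the 8 by function were compared next, from lists that leave out the 8 themselves. These lists were chosen with earlier results of these data known. Of 12 other cytosolic sulfotransferases only SULT1C2 and SULT4A1 had enough counts to be tested, and both were lower in NRF2 ΔC cells in all 3 comparisons. Over all genes tested, 3.12% were lower DEGs in untreated cells, 3.86% with NACET and 4.2% with H2O2. SULT1C2 was at 22.0 CPM in control and 8.40 CPM in NRF2 ΔC cells, with a log2 fold change of -1.19 in untreated cells (SE 0.22, BH-adjusted p = 0.0181 by edgeR). SULT4A1, the form found mainly in brain, was at 5.50 and 0.657 CPM, with a log2 fold change of -3.15 (SE 0.24, BH-adjusted p = 2.5e-04 by edgeR). All 9 NRF2 ΔC values of each gene were below all 9 control values. The summed level of the sulfotransferases, SULT1A1 included, ranged from 26.6 to 33.2 CPM in control and from 5.60 to 15.5 CPM in NRF2 ΔC libraries. The part of SULT1A1 in this difference, with means of 2.33 and 0.02 CPM, follows from the rule. Neither gene was a DEG of a treatment in control cells by edgeR without a replicate block. SULT4A1 remained a DEG without any 1 of the 6 libraries in each line comparison, whereas SULT1C2 was no longer one in untreated cells without control replicate 2, NRF2 ΔC replicate 2 or NRF2 ΔC replicate 3 (log2 fold changes from -1.48 to -1.0 over the 6 fits).

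Of the 13 other genes of very long chain fatty acid elongation, 11 were tested. None was a DEG between the lines in untreated or NACET-treated cells by edgeR's quasi-likelihood test, and ELOVL2, an elongase of polyunsaturated fatty acids, was lower in NRF2 ΔC cells with H2O2 (log2 fold change -0.81, BH-adjusted p = 0.0309 by edgeR). The other dehydratases were transcribed in both lines, PTPLA at 46.9 CPM in control and 39.2 CPM in NRF2 ΔC cells, PTPLB at 17.2 and 15.7 CPM and PTPLAD1 at 152 and 159 CPM. PTPLAD2 was thus the one dehydratase of the 4 that was nearly without reads in NRF2 ΔC cells. In control cells ELOVL6 rose with NACET (log2 fold change 0.66, BH-adjusted p = 0.0346 by edgeR).

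Among 4 other genes with the LCCL domain of cochlin, 3 were tested in untreated cells and CRISPLD1 was lower in NRF2 ΔC cells, at 11.7 against 32.8 CPM (log2 fold change -1.29 in untreated cells, SE 0.19, BH-adjusted p = 0.00682 by edgeR). It was lower with NACET (log2 fold change -1.49) and H2O2 (-1.73) too, and remained a DEG without any 1 of the 6 libraries in each of the 3 comparisons. DCBLD1 and DCBLD2 were not DEGs. Of 18 genes of the LHFPL family and the inhibitory synapse 5 were tested. NLGN2, which LHFPL4 binds, was at 61.4 CPM in control and 61.97 CPM in NRF2 ΔC cells.

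Of 8 junction genes related to AJAP1, 6 were tested, and BSG (basigin) was higher in NRF2 ΔC cells with H2O2 (log2 fold change 0.61, BH-adjusted p = 0.0317 by edgeR), while none was a DEG in the other line comparisons. CDH2 (N-cadherin) was at 323 CPM in control and 306 CPM in NRF2 ΔC cells. Of 10 genes of brittle cornea and the fibrillar collagens, 6 were tested and none was a DEG between the lines by edgeR, with a median log2 fold change of -0.24 in untreated cells, against 0.01 over all genes. Of the zinc finger genes near ZNF501, 4 were tested without a DEG between the lines, and ZNF35 rose with H2O2 in control cells (log2 fold change 0.74, BH-adjusted p = 0.0258 by edgeR). Over all 459 other ZNF symbols tested in untreated cells 9 were lower (1.96%) and 2 higher in NRF2 ΔC cells, where 428 of all 13710 genes (3.12%) were lower, and the median log2 fold change was 0.02. Whether these shares differ was not tested.

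Genes that set or read DNA methylation and Polycomb marks were also compared. Of the 20, 19 were tested and none was a DEG between NRF2 ΔC and control cells in any of the 3 comparisons by edgeR's quasi-likelihood test, with median log2 fold changes of 0.10 in untreated, 0.06 in NACET-treated and -0.10 in H2O2-treated cells, where those over all genes were 0.01, -0.0016 and 0.01. In control cells JARID2 fell with NACET (log2 fold change -0.63, BH-adjusted p = 0.0198 by edgeR), and UHRF1, which guides maintenance methylation, was higher with NACET than with H2O2 (1.04, BH-adjusted p = 0.0167 by edgeR). Among the RPE markers MITF was lower in NRF2 ΔC cells with NACET (-0.74, BH-adjusted p = 0.0198 by edgeR), and BEST1 was higher in NRF2 ΔC cells with H2O2 (1.13, BH-adjusted p = 0.0191 by edgeR). In control cells BEST1 rose (1.70) and the fibroblast marker PDGFRB fell (-0.75) with H2O2, and LHFP was higher with NACET than with H2O2 (0.65). Of the neuron markers 1 had enough counts to be tested and was not a DEG in any comparison by edgeR without a replicate block. Of the leukocyte markers 1 had enough, between the lines with H2O2 only. It was not a DEG there (log2 fold change 1.37, higher in NRF2 ΔC cells). The rise of BEST1 with H2O2 was a DEG without any 1 of the 6 libraries (1.59 to 1.76).

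Other calls in these lists were lost in some or all fits without 1 library, while the direction of the change stayed. Between the lines, each was lost without any 1 of the libraries now named. These were for MITF with NACET control replicates 1 and 2 and NRF2 ΔC replicates 2 and 3 (log2 fold changes over the 6 fits -0.82 to -0.62). They were for BSG with H2O2 the same replicate numbers, and also a fit without the filter on low counts (0.54 to 0.70), for BEST1 control replicates 1, 2 and 3 and NRF2 ΔC replicate 3 (1.05 to 1.20), and for ELOVL2 control replicates 2 and 3 and NRF2 ΔC replicate 2 (-0.95 to -0.69). In control cells the call of ELOVL6 with NACET was lost without any untreated replicate or NACET replicate 1 or 2 (0.55 to 0.77), and that of JARID2 without any NACET replicate or untreated replicate 1 or 2 (-0.65 to -0.58). With H2O2 the calls were lost without untreated replicate 1 or any H2O2 replicate for ZNF35 (0.59 to 0.89), and without untreated replicate 1 or 2 or H2O2 replicate 2 or 3 for PDGFRB (-0.91 to -0.52). For NACET against H2O2 they were lost without H2O2 replicate 1 or 3 or NACET replicate 2 for UHRF1 (0.87 to 1.18), and without any H2O2 replicate or NACET replicate 1 or 2 for LHFP (0.57 to 0.75). BEST1 was lower with NACET than with H2O2 (-1.49), a call lost without any 1 of the 6 libraries (-1.87 to -1.23). ELOVL6 was higher (0.76), a call lost without H2O2 replicate 1 or NACET replicate 2 (0.70 to 0.89).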

How the data were processed

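RNA was sequenced as TruSeq libraries, which do not keep the strand. The authors mapped single-end reads to hg19 with TopHat2 2.1.0 and Bowtie, counted them per gene with HTSeq 0.11.2 without regard to strand, removed ribosomal RNA genes, and deposited whole-number counts per gene symbol for each sample, without normalization (tools and build per the submitters' processing notes and the study's methods). The gene annotation is not given in the sources used here. The 5 HTSeq summary lines, 25.8 to 27.9% of a library's reads, entered neither library sizes nor tests, and 8.24 to 10.4% were reads with several places of alignment.

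CPM were computed here as counts over the library's total on genes. DEGs came from edgeR 4.0.16 in R 4.3.3 (filterByExpr, TMM, quasi-likelihood test, Benjamini-Hochberg adjustment over all genes tested), with 6 samples in each fit, a threshold of 0.05 and a log2 fold limit of 0.6. Unless a replicate block is named, calls are from fits without one. The code was tested on simulated counts. Alternatives were DESeq2 1.42.0, other normalizations and filters, 1 fit of the 9 control samples, the replicate block and leaving out each library. Genes were placed by GENCODE v44 lifted to GRCh37, and 22036 of 23411 symbols matched RefSeq. No 2 replicates were alike within sampling noise (chi-square per degree of freedom at least 9.98 over 18 pairs).

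Replicate numbers come from the labels. Deviations from the group means over 14153 genes correlated between same-numbered control-cell samples (0.469 to 0.795 for every pair), so the numbers pair these samples. Between the lines 1 of the 3 pairs, always that of replicate 2, was negative in each comparison (-0.281 to -0.0276). The other pairs were positive (0.495 to 0.715). The numbers thus do not pair all samples there.

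The named genes were all 8 of the set, their 2 nearest counted neighbours on each side, the lists of related genes and cell type markers, NFE2L2, the 5 most alike genes and those nearest to the limits. The members and lists were chosen with earlier results of these data known. No sequence of SULT1A1 and ZNF469 is shown. The results of 1 gene of the lists are not reported here. Intervals and floors cover counting error only, and PCR copies were not told apart. For genes without a count in NRF2 ΔC cells, 3 counts over the 9 libraries set the floor.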

Additional observations from a re-analysis of the deposited data

How the results depend on the processing

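The rule gave 8 genes with TMM-normalized CPM, 14 at a limit of 0.5 CPM, 4 at 2 CPM, 2 with no counts allowed and 15 with at most 18. Leaving out 1 library with the limit kept gave 8 to 12, the most without H2O2-treated NRF2 ΔC replicate 1, and the 8 were always among them. Of the 8 genes, 1 was a DEG of NACET and none of H2O2 or of NACET against H2O2 under every setting other than the replicate block, which added SULT1A1 to the last 2 comparisons (1 of 8 in each), and the fits without 1 library, which gave 0 to 1 with NACET (0 without any untreated replicate or NACET replicate 1 or 2). The 190 other values with all libraries kept their direction and side of the threshold. Without 1 library, 19 small changes turned. With NACET the log2 fold changes ranged from -0.21 to 0.0805 for COCH, -0.10 to 0.33 for LHFPL4, -0.35 to 0.14 for SULT1A1 and -0.069 to 0.088 for ZNF501. With H2O2 they ranged from -0.19 to 0.16 for COCH and -0.28 to 0.17 for LHFPL4, and for NACET against H2O2 from -0.21 to 0.13 for COCH, -0.069 to 0.42 for LHFPL4 and -0.11 to 0.34 for PTPLAD2. The cause was not tested.

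No neighbour was a DEG between the lines under the other settings, except with H2O2, where DESeq2 and the replicate block each gave 3 (G2E3, KIF15 and ZFPM1) and the fits without 1 library 0 to 4 (CCDC101, G2E3, MTMR14 and ZFPM1 without NRF2 ΔC replicate 1, KIF15 without replicate 3). With 5 neighbours on each side, chosen after seeing the data, SLC7A5 was lower in untreated and in NACET-treated cells (1 of 49 in each). In these line comparisons the replicate numbers do not pair all the samples, and the block took the DEGs over all genes from 528 to 843, from 648 to 1018 and from 763 to 1524. DESeq2 gave 608 DEGs of NACET in control cells against 376, and without a limit on the fold change H2O2 gave 1809 and NACET against H2O2 799. Without 1 library the DEGs over all genes ranged from 290 to 1047 with H2O2 and from 164 to 588 for NACET against H2O2 in control cells, and between the lines from 261 to 901 untreated, 320 to 917 with NACET and 400 to 2416 with H2O2, the last without NRF2 ΔC replicate 1.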
